A study of Mus musculus with 8 samples.

Results

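Integrin and laminin subunits were examined in epididymal white adipose tissue, the visceral fat pad beside the epididymis. Every row of the expression array whose annotation gave exactly 1 gene symbol was searched for integrin alpha chains (Itga), integrin beta chains numbered 1 to 8 (Itgb) and laminin alpha, beta and gamma chains (Lama, Lamb, Lamc). This gave 36 genes of 19310, 26 integrin and 10 laminin genes, each with a single row that named it alone. The search used gene symbols only. The members, and the lists of partners and markers below, were however chosen with earlier results of these data known. The samples were 4 arrays of wild-type (WT) mice and 4 arrays of mice labelled as Rev-erb alpha knockouts (KO), each numbered 1 to 4. Rev-erb alpha, encoded by Nr1d1, is a nuclear receptor of the circadian clock that represses transcription. All mice were C57BL/6 males of 12 to 15 weeks on a standard diet with 12 h of light and 12 h of dark, and fat was taken 10 h after lights on (Zeitgeber time 10). The knockout allele, the cells in which it acts and whether each array came from a separate mouse are not given in the sources used here, so the p-values may measure technical spread only.

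Integrins are receptors made of an alpha and a beta subunit that span the cell membrane and tie the matrix outside to actin inside through talin and kindlin. Laminins are trimers of an alpha, a beta and a gamma chain that form the sheet-like core of basement membranes. In fat, each mature adipocyte sits in its own basement membrane, and blood vessels, nerves and immune cells bring further integrins and laminins of their own. The genes are described below by the partners they bind.

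The values are log2 expression levels, and every difference below is the mean of the KO arrays minus that of the WT arrays on the log2 scale, with its standard error (SE). A gene was called changed at a Benjamini-Hochberg adjusted p under 0.05 in a limma fit over all rows with 1 symbol. Array medians lay between 5.896 and 5.951, and the groups lay apart on the principal component with the most variance (43.2%). The row of Nr1d1 itself read 9.47, 9.11, 9.18 and 9.83 in WT and 9.56, 9.28, 8.90 and 8.80 in the KO arrays (−0.26, SE 0.19, limma adjusted p = 0.479). The part of the transcript that this row reads is not given in the sources used here, so it does not check the genotype, and KO stands for the label throughout. Markers of mature adipocytes averaged 11.87 to 12.00 in WT and 11.95 to 11.97 in the KO arrays. In whole tissue, fewer cells of a type and less RNA per cell cannot be told apart.

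A minority of the integrin and laminin genes passed the test, and the integrin genes that passed were higher in the KO fat. Of 26 integrin genes, 5 were higher (Itga6, Itga5, Itga1, Itgb5 and Itgb1) and 0 lower by limma. An unadjusted p under 0.05 would give 7 higher and 1 lower of the 26, beside 1967 higher and 2249 lower of all 19310 genes. After adjustment the other 21 did not pass, and 10 of the 26 had differences below 0, at a median of 0.08. Of 10 laminin genes, Lama3 was higher and Lama1 and Lamc3 were lower. Together, 8 of 36 genes passed (22.2%), against 7.50% of all genes, with 3.89% of all genes called higher and 3.61% called lower. The changes were small, between 1.18-fold and 1.37-fold for the 6 that rose, and the median log2 difference was 0.05 over the 36 genes against −0.01 over all genes. In 9 of 36 genes the groups did not overlap (25.0%), against 15.5% of all genes.

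**Figure D1:**
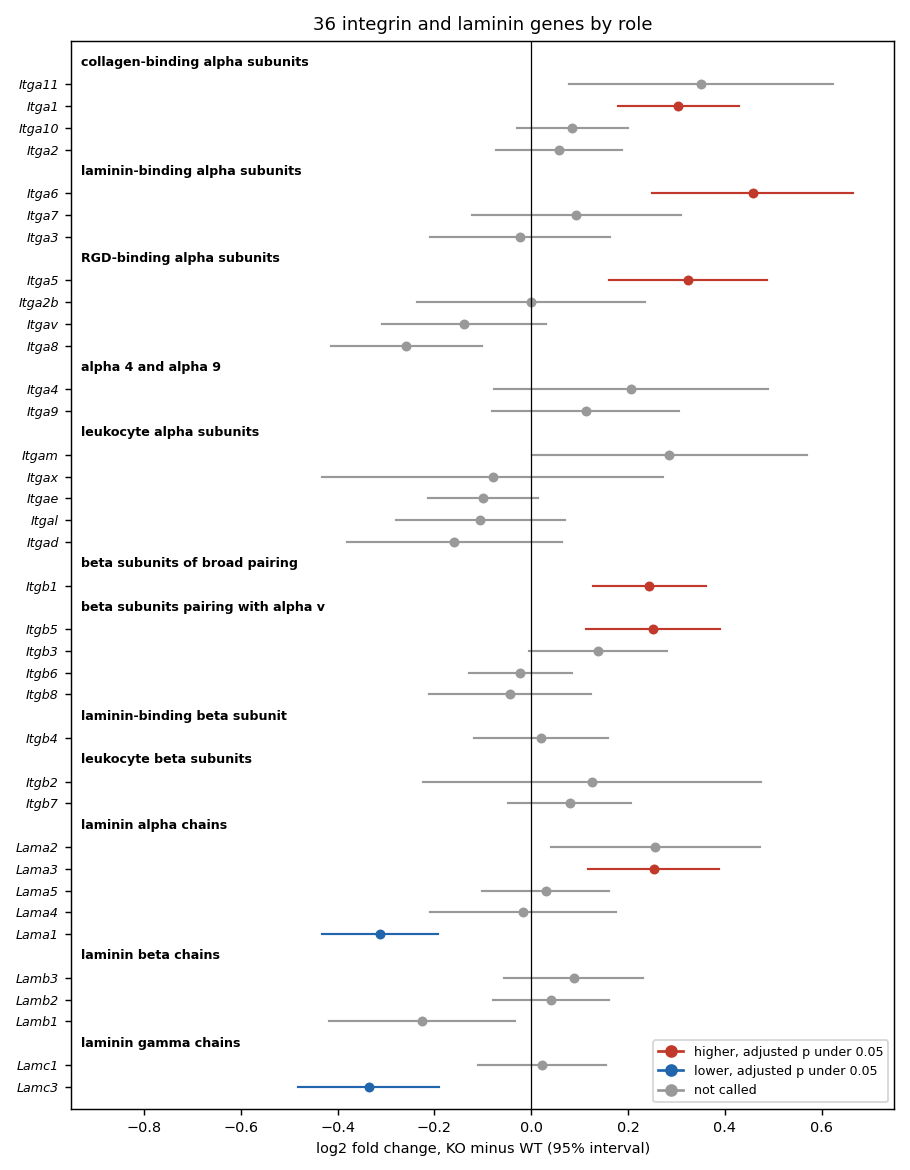
Log2 differences between knockout-labelled and WT arrays (x axis) for the 36 integrin and laminin genes, grouped by role (y axis), with 95% intervals of the limma fit as bars and n = 4 arrays per group. Red points were called higher, blue points lower and grey points not called. The 6 red points lie between 0.24 and 0.46 and the 2 blue points at −0.34 and −0.31.

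The calls differed in how firmly they held when single arrays were left out. Itga1, Lama1 and Lamc3 passed whichever array was left out and under every other alternative that was run. The number of integrin genes called higher fell to 3 without WT array 1, 2 or 4 or KO array 4, and to 2 without WT array 3 or KO array 3. With KO array 4 left out, 1 integrin gene, Itga8, was called lower. The single laminin call upwards was absent in the fits that left out any of WT arrays 1 to 3 or KO arrays 1 to 3.

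Itgb1 encodes the beta chain that pairs with the widest range of alpha chains, among them the receptors for collagen, laminin and fibronectin. It read 9.38, 9.34, 9.36 and 9.43 in the WT arrays and 9.63, 9.57, 9.71 and 9.57 in the KO arrays. All KO arrays lay above all WT arrays, and the difference was 0.24 (SE 0.053, 1.18-fold, limma adjusted p = 0.0195). The call was narrowly lost when WT array 2, WT array 3 or KO array 3 was removed (limma adjusted p of 0.0556, 0.0543 and 0.0508), while the difference stayed between 0.215 and 0.261 over all fits with 1 array left out.

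Among the alpha chains that bind collagen as partners of Itgb1, Itga1 rose. Itga1 encodes a receptor chain that prefers basement membrane collagen IV, and it read 8.12, 8.12, 8.10 and 8.26 in WT and 8.45, 8.51, 8.46 and 8.39 in the KO arrays. The groups did not overlap, and the difference of 0.30 (SE 0.056, 1.23-fold, limma adjusted p = 0.00981) was 0.284 to 0.341 with single arrays left out. Itga11, a fibroblast receptor for fibrillar collagen, had a larger but less certain difference. Its values were 5.72, 5.64, 5.40 and 5.87 in WT and 5.97, 5.71, 6.24 and 6.11 in the KO arrays, so that KO array 2 lay inside the WT range. The difference of 0.35 (SE 0.12) did not pass (adjusted p = 0.121), and it passed without KO array 2 (0.45, adjusted p = 0.0402). Itga2 and Itga10, the other collagen-binding chains, differed by 0.06 (95% interval −0.07 to 0.19) and 0.08 (−0.03 to 0.20) and did not pass.

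Of the alpha chains that bind laminin, Itga6 rose and had the highest log2 difference of the 36 genes. Itga6 pairs with Itgb1 or Itgb4 and is found on endothelial and epithelial cells, among others. It read 9.28, 9.25, 9.16 and 9.39 in WT and 9.57, 9.59, 9.99 and 9.76 in the KO arrays. The groups did not overlap, with KO array 3 the highest, and the difference was 0.46 (SE 0.094, 1.37-fold, limma adjusted p = 0.0156). Without WT array 3 the call was lost (0.42, adjusted p = 0.0513). Itgb4, its partner in hemidesmosomes, differed by 0.02 (95% interval −0.12 to 0.16, adjusted p = 0.895). Itga3 (−0.02, −0.21 to 0.16) and Itga7, a muscle laminin receptor (0.09, −0.12 to 0.31), did not pass either.

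Receptors for the RGD motif of fibronectin and vitronectin were divided. Itga5, which with Itgb1 forms the main fibronectin receptor, read 7.08, 7.17, 6.97 and 7.06 in WT and 7.23, 7.38, 7.40 and 7.55 in the KO arrays. The lowest KO value lay just above the highest WT value, and the difference was 0.32 (SE 0.073, 1.25-fold, limma adjusted p = 0.0253). Removing any of WT arrays 1, 3 and 4 or KO arrays 3 and 4 ended the call (limma adjusted p from 0.0525 up to 0.0728). Itga8, another RGD receptor chain, which pairs with Itgb1, lay the other way, at 4.99, 4.83, 4.88 and 4.92 in WT and 4.51, 4.60, 4.68 and 4.80 in the KO arrays. Its groups did not overlap, and its difference of −0.26 (SE 0.070) narrowly missed the threshold (adjusted p = 0.0519), which it passed without KO array 4 (−0.310, 0.0327) and with quantile normalization (−0.248, 0.0483). Itga8 is also 1 of the 4 members, with Itgad, Itgb6 and Itgb8, in the dimmest 33.3% of rows, and without detection calls a floor for such rows is unknown.

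The alpha v receptors, which bind vitronectin and activate latent TGF-beta, showed a change in 1 of their beta chains. Itgb5 pairs only with alpha v and read 9.44, 9.40, 9.59 and 9.35 in WT and 9.71, 9.68, 9.63 and 9.77 in the KO arrays. WT array 3 came close to the lowest KO array, without overlap. The difference was 0.25 (SE 0.062, 1.19-fold, limma adjusted p = 0.0371), and its call held without WT array 3 but ended on removal of any other array (limma adjusted p from 0.0516 up to 0.105) and under quantile normalization (0.0532). Itgav itself differed by −0.14 (95% interval −0.31 to 0.03, adjusted p = 0.332), from 7.97 ± 0.14 to 7.84 ± 0.09 (SD, n = 4 each). Itgb3 (0.14, −0.0038 to 0.28, adjusted p = 0.243), Itgb6 (−0.02) and Itgb8 (−0.04) did not pass, and neither did Itga2b, the platelet partner of Itgb3 (−0.00045, −0.24 to 0.24).

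The promoters of 4 of the 5 integrin genes called higher are shown, as no sequence was available for Itga6. They are the 250 bases before the start site in RefSeq's table of the GRCm38.p6 build, read 5′ to 3′ on the gene's strand. They lie at chr13:115101965-115102214 on the minus strand (Itga1), chr15:103366792-103367041 on the minus strand (Itga5), chr8:128685404-128685653 on the plus strand (Itgb1) and chr16:33829415-33829664 on the plus strand (Itgb5). Capitals mark the GC box GGGCGG, to which Sp1 family factors bind, on either strand.
Itga1: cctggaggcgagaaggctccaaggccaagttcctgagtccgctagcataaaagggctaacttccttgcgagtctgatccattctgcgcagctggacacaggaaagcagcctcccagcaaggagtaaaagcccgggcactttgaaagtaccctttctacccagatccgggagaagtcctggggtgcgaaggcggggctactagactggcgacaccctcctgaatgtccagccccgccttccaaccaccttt
Itga5: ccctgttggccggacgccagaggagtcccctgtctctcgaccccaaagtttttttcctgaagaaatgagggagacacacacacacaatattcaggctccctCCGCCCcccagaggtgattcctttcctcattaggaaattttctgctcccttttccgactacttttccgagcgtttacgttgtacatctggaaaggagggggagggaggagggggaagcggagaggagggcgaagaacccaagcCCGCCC
Itgb1: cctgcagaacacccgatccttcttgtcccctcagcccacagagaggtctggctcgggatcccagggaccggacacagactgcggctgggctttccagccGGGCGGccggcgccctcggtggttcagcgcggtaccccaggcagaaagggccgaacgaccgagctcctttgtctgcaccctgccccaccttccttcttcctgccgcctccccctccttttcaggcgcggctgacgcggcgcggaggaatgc
Itgb5: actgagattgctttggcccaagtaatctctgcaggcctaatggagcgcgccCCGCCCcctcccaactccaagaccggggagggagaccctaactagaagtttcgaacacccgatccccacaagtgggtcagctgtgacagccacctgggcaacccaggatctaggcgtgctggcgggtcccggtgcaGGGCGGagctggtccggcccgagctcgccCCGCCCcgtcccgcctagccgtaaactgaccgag

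These windows held 0, 2, 1 and 3 GC boxes in the order given, at GC contents of 57.6%, 55.6%, 68.0% and 65.2%. The table held 26 windows for 23 of the 36 genes, of which 9 windows (34.6%) had a GC box, against 32.7% of the 32851 windows of all genes. The half-site AGGTCA, the core of the element that Rev-erb and ROR receptors bind, was searched on both strands. It was found in 0 of the 26 windows and in 14.0% of all windows, and the longer TAGGTCA, which contains it, in 0 of 26 and 2.23%. The E-box CACGTG, a palindrome bound by the clock activators, was found in 0 of 26 and 6.02%, and TATAAA in 0 of 26 and 12.4%. Such counts say only which letters lie in these windows.

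**Figure D2:**
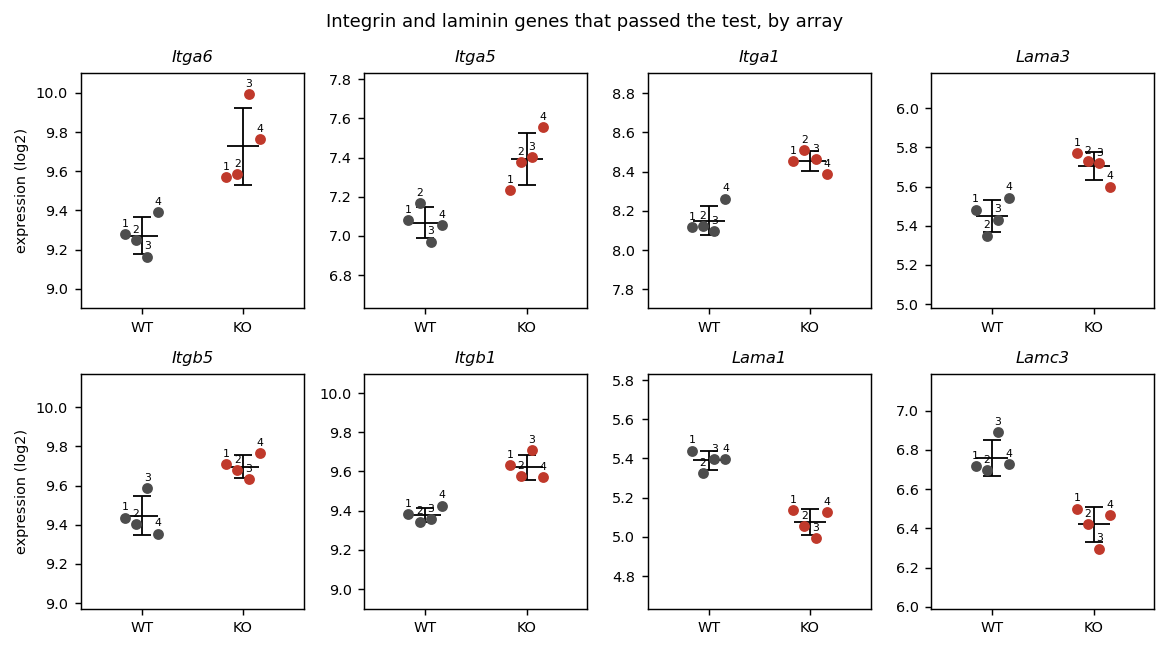
Log2 expression (y axis) of the 8 integrin and laminin genes that passed the test, on each wild-type (grey) and knockout-labelled (red) array. Points carry the replicate number, and bars are the mean ± SD of 4 arrays. Each panel spans the same log2 range around its own centre, the groups do not overlap in any panel, and KO array 3 stands highest for Itga6 at 9.99.

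Integrins of leukocytes did not pass in either direction. Of the 36 genes, Itgb2 had the widest range among the WT arrays and Itgax among the KO arrays. Itgb2, the beta chain shared by the leukocyte integrins, read 7.29, 7.54, 6.76 and 7.27 in WT and 7.04, 7.59, 7.41 and 7.33 in the KO arrays. WT array 3 was the lowest and the groups overlapped widely (0.13, 95% interval −0.22 to 0.47, limma adjusted p = 0.714), with a difference of −0.0253 without that array. Itgam, the macrophage and neutrophil partner known as CD11b, read 7.17, 7.04, 6.70 and 6.91 against 6.91, 7.35, 7.48 and 7.22 (0.28, SE 0.13, adjusted p = 0.226). WT array 3 was again the lowest, and it was also the lowest array for the 16 monocyte and macrophage markers, whose mean was 7.42 there and 7.60 to 7.81 on the other WT arrays. The KO arrays lay at 7.60 to 7.91 for those markers, and the part of the macrophage markers in the integrin values was not tested.

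The remaining leukocyte alpha chains lay slightly below wild type without passing. Itgax, the CD11c chain of dendritic cells and some macrophages, had the widest spread among the KO arrays, 4.79, 5.65, 5.32 and 5.40, against 5.27, 5.38, 5.21 and 5.61 in wild type (−0.08, adjusted p = 0.830). Itgal, the CD11a chain of lymphocytes (−0.11, 95% interval −0.28 to 0.07), Itgae, the CD103 chain (−0.10, −0.21 to 0.01), and Itgad (−0.16, −0.38 to 0.06) had adjusted p of 0.498, 0.297 and 0.405. Itgb7, which pairs with Itgae or Itga4, differed by 0.08 (−0.05 to 0.21). Itga4, the receptor chain for VCAM-1 on leukocytes, differed by 0.21 (−0.08 to 0.49), led by KO array 2 at 6.78 against 6.18 to 6.40 on the other 3. Itga9 differed by 0.11 (−0.08 to 0.31). The intervals of Itgal, Itgae, Itgad and Itgb7 end below the difference of 0.24 seen in Itgb1, and those of Itgax, Itga4 and Itga9 include it.

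Among laminin alpha chains, Lama1 fell and Lama3 rose. Lama1, the alpha chain of embryonic and some epithelial basement membranes, read 5.44, 5.33, 5.40 and 5.40 in WT and 5.13, 5.05, 4.99 and 5.12 in the KO arrays. The groups were clearly apart, and the difference of −0.31 (SE 0.054, 1.24-fold lower, limma adjusted p = 0.00704) stayed between −0.334 and −0.285 with single arrays left out. The Lama1 row was itself dim, at percentile 37.5 of the mean levels of all rows with 1 symbol. Without detection calls its distance from a floor is unknown. Lama3, a chain of epithelial laminins that anchor cells through Itga6 and Itgb4, read 5.48, 5.35, 5.43 and 5.54 against 5.77, 5.73, 5.72 and 5.60. Here KO array 4 stood close to WT array 4, and the difference was 0.25 (SE 0.061, 1.19-fold, adjusted p = 0.0319). The Lama3 call was kept only without WT array 4 or KO array 4, with adjusted p of 0.0576 to 0.0836 in the other 6 fits. The Lama3 row lay at percentile 43.6, and its distance from a floor is unknown as well.

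The laminin alpha chains best known from fat and its vessels did not pass. Lama4, the alpha chain of adipocyte and endothelial basement membranes, read 9.34, 9.22, 9.40 and 9.48 in WT and 9.51, 9.44, 9.15 and 9.27 in the KO arrays (−0.02, 95% interval −0.21 to 0.18, adjusted p = 0.936). The KO arrays were split, with arrays 1 and 2 above arrays 3 and 4, and the sign of the difference changed with median centring (0.0044). Lama5, the other endothelial alpha chain, differed by 0.03 (−0.10 to 0.16). Lama2, the chain of muscle, nerve and stromal laminin that binds dystroglycan, read 7.83, 7.97, 7.46 and 7.79 against 7.99, 8.06, 8.11 and 7.93, with WT array 3 low once more. Its difference of 0.26 (SE 0.098) did not pass (adjusted p = 0.152) and was 0.156 without that array.

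Of the beta and gamma chains, Lamc3 fell and the chains that complete most laminin trimers did not pass. Lamc3, a less common gamma chain, read 6.72, 6.70, 6.89 and 6.73 in WT and 6.50, 6.42, 6.30 and 6.47 in the KO arrays. No value overlapped, and the difference of −0.34 (SE 0.066, 1.26-fold lower, limma adjusted p = 0.0122) was −0.363 to −0.291 with single arrays left out. Lamc1, the gamma chain of nearly all vascular and adipocyte laminins, differed by 0.02 (95% interval −0.11 to 0.15, adjusted p = 0.879). Lamb1, the beta chain found with Lama4, read 8.42, 8.42, 8.46 and 8.60 against 8.49, 8.15, 8.28 and 8.09. KO array 1 lay among the WT values, and the difference of −0.23 (SE 0.087, adjusted p = 0.157) passed without it (−0.303, 0.0366). Lamb2 (0.04, −0.08 to 0.16) and Lamb3 (0.09, −0.06 to 0.23) did not pass.

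**Figure D3:**
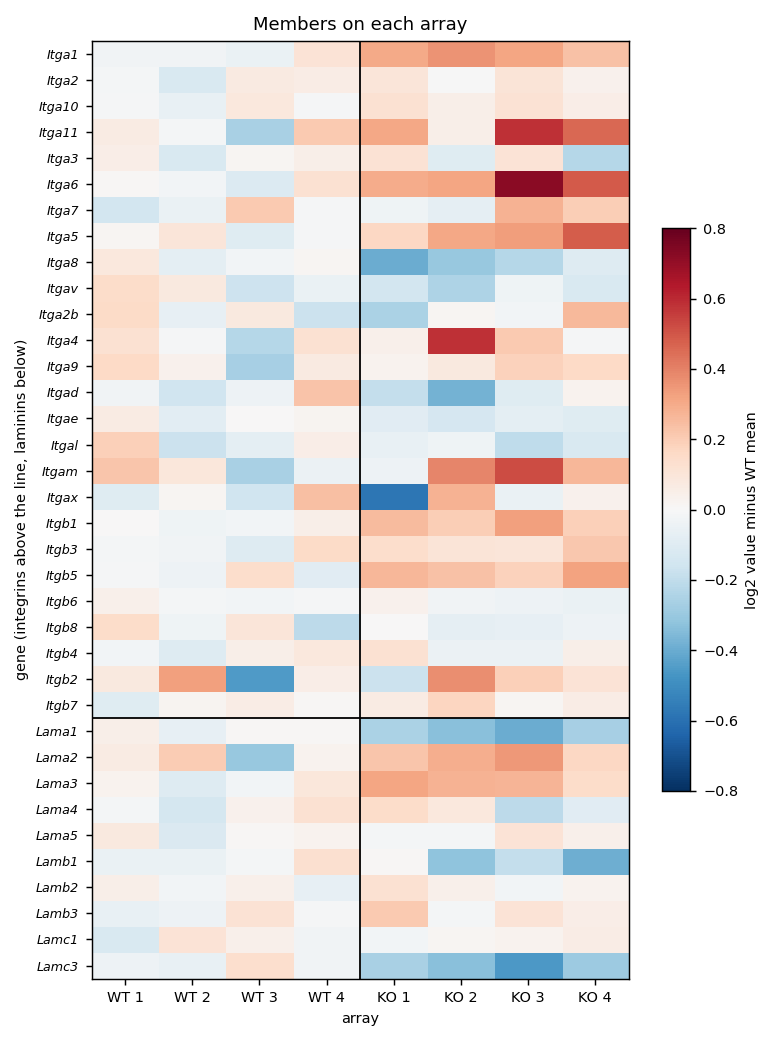
Log2 value minus the WT mean (colour) of the 36 integrin and laminin genes (y axis) on each of the 8 arrays (x axis), with red above and blue below the WT mean. Itga1, Itgb1, Itgb5 and Lama3 are red and Lama1 and Lamc3 blue on all 4 KO arrays, while Itgb2, Itgam, Itga4 and Itgax differ between arrays of the same group.

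Other components of the basement membrane mostly rose where they passed. Of 22 measured genes for collagen IV, nidogens, heparan sulfate proteoglycans and associated proteins, 10 were higher and 1 lower (11 of 22 called, against 7.50% of all genes), and their median log2 difference was 0.21 beside −0.01 over all genes. Hspg2, which encodes perlecan, went from 9.28 ± 0.09 to 9.91 ± 0.12 (SD, n = 4 each), a 1.54-fold difference (0.62, SE 0.071, limma adjusted p = 0.000709). The collagen IV genes Col4a2 (0.67, SE 0.078) and Col4a1 (0.53, SE 0.070) were 1.59-fold and 1.45-fold higher. The 1 member that fell, chosen for mention after its value was seen, was Smoc1, a calcium-binding matrix protein gene (−0.70, SE 0.11, adjusted p = 0.00392). These 4 genes were called whichever array was left out, but the number called higher fell from 10 to between 7 and 8 in those fits.

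Integrin ligands outside the laminins had 7 genes higher and 1 lower of 27 measured (29.6% called, against 7.50% of all genes), at a median of 0.04. Mfge8, which bridges alpha v integrins to dying cells and to fatty acid uptake, was 1.87-fold higher (0.90, SE 0.058, limma adjusted p = 4.84e-05), on all 4 KO arrays. Col1a1, a fibrillar collagen chain, and Npnt, the ligand of Itga8, were higher by 0.71 (SE 0.086) and 0.63 (SE 0.092). Vtn, vitronectin, was the member that fell (−0.53, SE 0.13, adjusted p = 0.0297), named after its value was seen. The count of higher ligands was 4 without WT array 3 or 4 or KO array 3 or 4, and removal of WT array 3 or of KO array 1, 2 or 4 ended the Vtn call (limma adjusted p from 0.0608 up to 0.0740).

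The machinery that links integrins to actin rose in 8 of 37 measured genes and fell in 0 by limma, with 11 and 0 at an unadjusted p under 0.05, and its median was 0.05. This is 21.6% called, against 7.50% of all genes, and at an unadjusted p under 0.05 there were 4216 of 19310 genes overall. Tln2, a talin that binds integrin beta tails, went from 7.78 ± 0.03 to 8.50 ± 0.08, a 1.65-fold difference (0.72, SE 0.055, adjusted p = 8.95e-05). Tgfb1i1, a focal adhesion adaptor related to paxillin, and Parva, a parvin that binds integrin-linked kinase, were higher by 0.53 (SE 0.068) and 0.50 (SE 0.067). These 3 were called with any array left out, but the number called higher fell from 8 to between 6 and 7 in those fits.

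A list of other laminin receptors, the dystroglycan complex and syndecans had 4 genes higher and 1 lower of 17 measured (29.4% called, against 7.50% of all genes), at a median of 0.07. Dag1, which encodes the laminin receptor dystroglycan (0.04, SE 0.050, limma adjusted p = 0.688), and Bcam, a receptor for Lama5 (0.04, SE 0.084, 0.838), did not pass. The 4 higher genes were 3 sarcoglycans, which accompany dystroglycan in the membrane, and the syndecan Sdc2 (0.27, SE 0.062, limma adjusted p = 0.0275). The sarcoglycan genes Sgcb (0.40, SE 0.070, limma adjusted p = 0.00713) and Sgcd (0.32, SE 0.070, 0.0200), were higher, as was Sgce (0.26, SE 0.061, 0.0271). Rpsa, a ribosomal protein gene whose product was also named a laminin receptor, was lower on its brightest row (−0.38, SE 0.081, limma adjusted p = 0.0177), but averaging all rows of the gene ended the call and gave −0.157 (adjusted p = 0.0816). Without WT array 3 or KO array 4 the list had 1 gene higher and 0 lower, and without WT array 1 or KO array 3 it had 2 and 1 genes higher. Removal of WT array 3, KO array 3 or KO array 4 ended the Sgcd call (limma adjusted p of 0.0517, 0.0549 and 0.0629), and removal of WT array 3 or KO array 4 that of Rpsa (0.0511 and 0.0584). The Sgce call was kept only without WT array 4 or KO array 2, and the Sdc2 call only without WT array 2 or KO array 1 or 2 (limma adjusted p up to 0.0683 and 0.0768 in the other fits with 1 array left out).

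**Figure D4:**
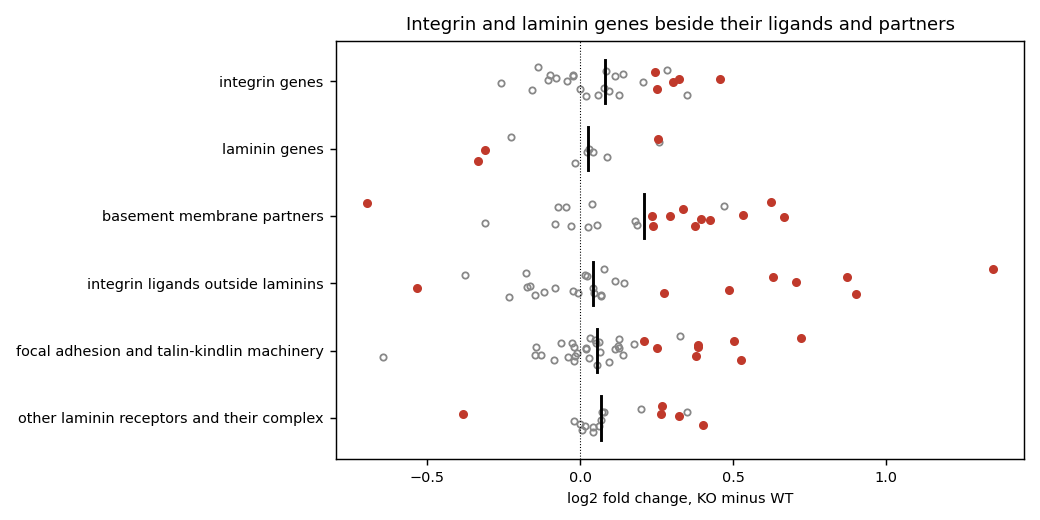
Log2 differences (x axis) of the integrin genes, the laminin genes and 4 lists of their ligands and partners (y axis). Filled red points passed the test in either direction, open points did not, vertical bars mark medians, and the vertical scatter within a row has no meaning. The basement membrane list has the rightmost median, 0.21, and Thbs1 in the ligand list the largest difference, 1.35.

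Markers of cell types that carry these integrins and laminins were read against the 7.50% of all genes called, 3.89% higher and 3.61% lower. Unadjusted counts below stand beside 4216 of all 19310 genes with an unadjusted limma p under 0.05, 1967 higher and 2249 lower. Of 14 measured progenitor and fibroblast markers 6 were higher and 0 lower (7 and 0 at an unadjusted p under 0.05), and their mean was 7.93 to 8.24 on WT arrays and 8.34 to 8.46 on KO arrays. Their median difference was 0.23, with 3 of the 14 below 0. The calls of Fbln2, Mfap5 and Anxa3 held whichever array was left out. Those of Col5a2, Cd55 and Pi16 ended in 6, 4 and 5 of the 8 such fits. Of 15 endothelial markers 3 were higher and 0 lower (6 and 1 unadjusted), with means of 7.68 to 7.77 and 7.86 to 7.92. Their median difference was 0.11, with 5 of the 15 below 0. Cldn5 (0.99) was called whichever array was left out, while the Lyve1 and Pecam1 calls each ended in 7 of 8 such fits. Of 12 smooth muscle and pericyte markers 2 were higher and 1 lower (3 and 2 unadjusted), with overlapping means of 7.12 to 7.27 and 7.22 to 7.46. Their median difference was 0.03, with 6 of the 12 below 0. The upward calls of Rgs5 and Acta2 held whichever array was left out, and the downward call of Tagln ended in 6 of 8 such fits. The part of progenitors, fibroblasts, endothelial cells, smooth muscle cells and pericytes in the differences of Itga1, Itga5, Itga6, Itga11, Itgb1, Itgb5 and the laminins was not tested. Of 14 mature adipocyte markers 2 were higher and 0 lower (2 and 4 unadjusted), 8 of the 14 differences lay below 0, and the median was −0.06. Of 11 mesothelial markers 2 were higher and 0 lower (2 and 4 unadjusted), 8 lay below 0, and the median was −0.19. Of 16 macrophage markers 0 were higher and 1 lower (1 and 2 unadjusted), or 6.25%, and of 12 skeletal muscle markers 0 were higher and 1 lower (2 and 1 unadjusted), or 8.33%. Of 10 Schwann cell and nerve markers 1 was higher and 0 lower (1 and 1 unadjusted), or 10.0%, and of 6 platelet and megakaryocyte markers 1 and 0 (1 and 0 unadjusted). The shares for macrophages, skeletal muscle and nerve are near that over all genes. With single arrays left out, the calls of Efemp1 (mesothelial), Actn3 (skeletal muscle) and Ppbp (platelet) ended in 5, 6 and 6 of 8 fits. Those of Aqp7 and Lep (adipocyte), Msln (mesothelial), Cd14 (macrophage) and Uchl1 (nerve) held in all 8. Lists for dendritic cells, T and NK cells, B cells, neutrophils and epididymal epithelium, 42 measured genes, had 0 called by limma and 4 at an unadjusted p under 0.05.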

How the data were processed

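Biotin-labelled RNA was read on a whole-transcript Affymetrix mouse array, 1 array per sample. The authors deposited 1 table of log2 values, and affy is named in the submitters' processing notes. Background correction, normalization, summarization and filters are not given in the sources used here. The log2 scale was inferred from their range, 2.094 to 13.35. Processing that aligns arrays hides a shift shared by most genes.

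The platform annotation gave 1 symbol to 20748 of 23346 rows, several to 1183 and none to 1415. Both rows that name Itgam beside another gene were left out. The 36 symbols match RefSeq's gene table. Knockout-labelled and wild-type arrays (4 each) were compared with limma 3.58.1 in R 4.3.3 (lmFit, eBayes, 2 groups, no other term, no filter, two-sided), with Benjamini-Hochberg adjustment over the 20748 rows. Genes with several rows were counted by the brightest row. SE and 95% intervals come from the moderated fit.

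Called members were given in full. Others were named by role, up to 3 with the smallest p, with ranges otherwise, and from each pathway list up to 3 called genes with the smallest p. Also named, beyond this rule, were Nr1d1, Smoc1, Vtn, Thbs1, Sgce, Sdc2, Dag1, Bcam and the called cell type markers. The members and lists were chosen with earlier results of these data known. Replicate numbers did not pair arrays (correlation of deviations −0.0674 to 0.134). No arrays were identical. In data simulated for this comparison over 20748 rows, the fit found 20% of the changes sized 0.25 log2 and 76% of those sized 0.5 log2, and 4% of its 100 calls were false. The data had 1536 rows called. A Benjamini-Hochberg threshold is stricter where fewer rows are called, so these simulated shares do not give the power of the fit to the data. Alternatives were quantile normalization, median centring, a dim-row filter, a test of all rows, eBayes with a trend and robust variances, array weights, a replicate block, averaging a gene's rows, and leaving out each array. The number of arrays limits precision.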

Additional observations from a re-analysis of the deposited data

Results flagged for a closer look

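In 3 of 72 groups of 4 arrays (36 genes, 2 groups), 1 array stood far from the rest by Dixon's test, where chance alone gives about 1 in 20. WT array 4 read 8.262 for Itga1, above 8.122 for the next, and still below every KO array. WT array 1 read 3.37 for Itgb6, against 3.308 to 3.318 on the others. WT array 3 read 6.892 for Lamc3, above 6.727 for the next, and the Lamc3 call was kept without it.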

How the results depend on the processing

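Over the 36 genes and 16 alternatives, 520 of 572 values kept their direction and their side of the threshold, 27 lost a call, 5 gained one and 20 changed sign, and 0 of the sign changes were in called genes. Sign changes fell on 9 genes, with differences from −0.08 (Itgax) to 0.13 (Itgb2) in the main fit. With single arrays left out the ranges were −0.08651 to 0.08408 for Itga2b, −0.07019 to 0.04479 for Itga3, −0.2 to 0.08705 for Itgax, −0.0253 to 0.2341 for Itgb2, −0.01494 to 0.04792 for Itgb4, −0.1136 to 0.004147 for Itgb8, −0.07274 to 0.04755 for Lama4, −0.009347 to 0.05708 for Lama5 and −0.01879 to 0.05854 for Lamc1. Itga2b also turned to 0.0136 with quantile normalization, 0.02129 with median centring and 0.03349 with array weights, and Lama4 to 0.0044 with median centring.

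With single arrays left out, integrin genes called higher numbered 2 to 5 and those called lower 0 to 1. Laminin genes numbered 0 to 1 higher and 2 to 3 lower, and ligands 4 to 7 higher and 0 to 1 lower. Basement membrane partners numbered 7 to 8 higher and 1 to 2 lower, against 10 and 1 with all arrays. Genes that link integrins to actin numbered 6 to 7 higher, against 8 with all arrays. Other laminin receptors numbered 1 to 4 higher and 0 to 1 lower, and rows called among all rows with 1 symbol 913 to 1418. Quantile normalization, or averaging a gene's rows, gave 1 integrin gene called lower. Leaving out dim rows, or trend and robust options, gave 2 basement membrane partners called lower. The replicate numbers only name the arrays, and with them as a block 2 integrin genes and 0 laminin genes were called higher, 2 basement membrane partners lower, 4 ligands higher and 2 lower, and 2 other laminin receptors higher. The cause of these moves was not tested. Itga5, Itgb1, Itgb5 and Lama3 lost their calls under the replicate block (adjusted p = 0.0525, 0.0628, 0.0972 and 0.0844). The dim-row filter left 32 of the 36 genes and gave no value for the other 4. The calls of Itga5, Itgb1, Itgb5 and Lama3 were also lost in some fits with 1 array left out, and that of Itga6 in 1 such fit.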
